A study of Drosophila melanogaster with 8 samples.

Results

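Ac13E, Ac76E and Ac78C encode membrane-bound adenylyl cyclases of Drosophila melanogaster, and their transcripts were followed in heads of males fed pentylenetetrazole and then gabapentin. The genes were taken by their symbols in the platform annotation of the array, which gave 6 spotted features, 2 for each of the 3 genes, out of 27648 features and 6793 genes named by a single symbol. Only features with exactly 1 symbol were taken, so a feature naming any of these genes beside another gene would not be included. None of the 3 genes passed the test in any comparison in which it had enough values, against a background of 0% of everything tested. Relative to the median of its array, a gene stood between -0.34 and 0.73 on the log2 scale.

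Adenylyl cyclases make cyclic AMP from ATP. In neurons they are switched on by receptors that act through the G protein subunit Gs and held back by receptors that act through Gi. Cyclic AMP then activates protein kinase A, the exchange factor Epac and some ion channels, and phosphodiesterases break it down. In the fly brain the pathway is best known from memory formation, through the cyclase rutabaga (rut) and the phosphodiesterase dunce (dnc). The RefSeq gene table lists dADCY9, dADCY2 and dADCY8 among the synonyms of Ac13E, Ac76E and Ac78C, which link them to different members of the mammalian ADCY family. Ac76E is known as a target of the transcription factor FOXO and for its expression in the corpora allata, the glands that make juvenile hormone. Ac78C is known from sugar-sensing taste neurons and from clock neurons that receive the peptide PDF.

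Treated flies were unmated Oregon-R wild type males, 3 to 4 days old at the start and 30 to a vial. For 7 days their food held 8 mg/ml pentylenetetrazole, which provokes seizures by blocking GABA-A receptors, and for the next 3 days it held 16 mg/ml of the antiepileptic drug gabapentin. In the day 14 group these were followed by 4 days on normal food, and in the day 10 group heads were taken when gabapentin ended. Control males of the same strain and age stayed on normal food and were moved to fresh vials in parallel. For 3 of the 4 day 14 arrays the labels write ETH, which they do not explain, in place of gabapentin when they give the order of feeding. Each group held 4 spotted cDNA arrays, and each array compared cRNA from a pool of treated heads with cRNA from its own control pool. The dyes were swapped within each group: in replicates 1 and 2 the treated RNA was labelled with Cy5, and in replicates 3 and 4 with Cy3.

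The values are log2 ratios, and spots that failed the authors' quality filter are blank. The day 14 arrays held a value for 24.0 to 51.0% of features and the day 10 arrays for 46.8 to 71.3%. Array medians of the deposited ratios spanned -0.48 to 0.29 in the day 14 group and -0.83 to 0.079 in the day 10 group. Here they were taken to be Cy5 over Cy3, and the sign of replicates 3 and 4 was turned so that a value above 0 stands for more signal in treated RNA. The sources used here do not settle that reading, so means with the deposited signs are given for the 3 cyclases and for each pathway gene named. Of 10 photoreceptor and 11 neuron markers, 7 and 2 were named on the array, with 4 to 7 and 0 to 2 of them measured per array. Of 7 fat body, 8 glia and 6 muscle markers, 7, 6 and 3 were named on the array. Per array 2 to 7, 3 to 6 and 1 to 3 of these were measured. Ratios show no absolute level, and markers of all these types were measured, so the head label could not be checked. In whole heads, fewer cells of a type and less RNA per cell cannot be told apart.

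The 3 genes had values in 17 of 24 combinations of gene and array, and both spots of a gene were always present or blank together. Day 14 replicate 2 held no value for any of them, and day 10 replicate 3 held one for Ac13E alone. Ac13E was measured on 2 day 14 arrays and all 4 day 10 arrays, Ac76E on 2 and 3, and Ac78C on 3 of each day. Over the whole array 35.5% of features had values on at least 6 arrays, as Ac13E and Ac78C did, and 48.4% on at least 5, as Ac76E did. Genes with at least 3 values on a day were tested, which left Ac78C alone at day 14 and all 3 genes at day 10.

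**Figure D1:**
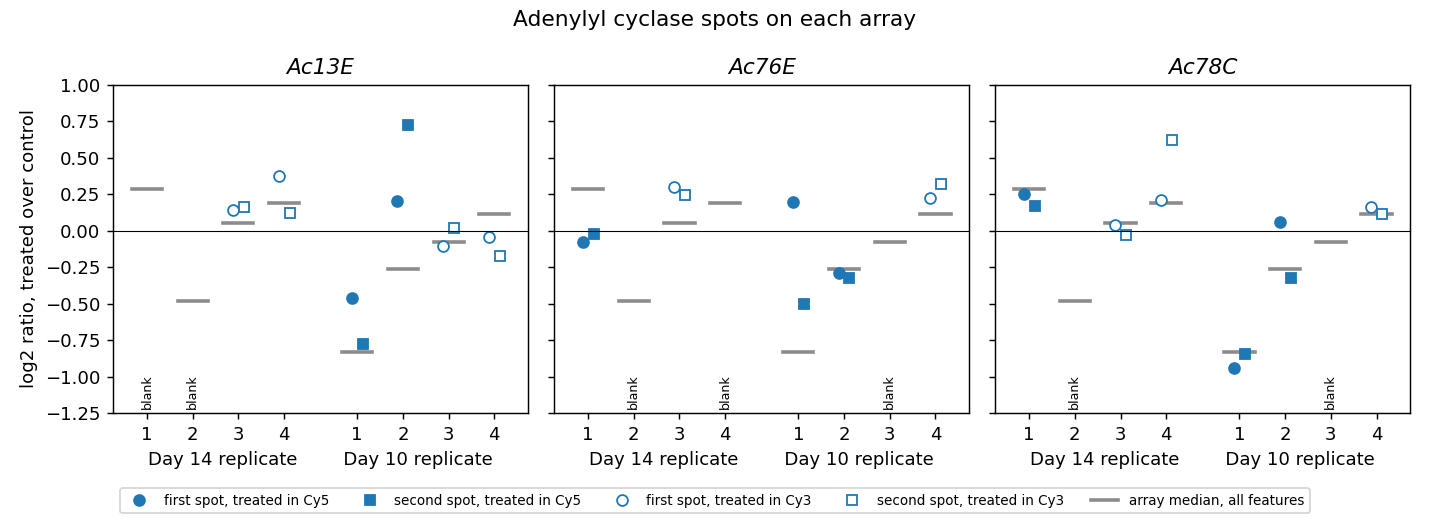
Log2 ratio of treated over control (y axis) for each spot of Ac13E, Ac76E and Ac78C on the 4 day 14 and the 4 day 10 arrays (x axis). Circles and squares are the 2 spots of a gene, filled symbols mark treated RNA in Cy5 and open symbols in Cy3, grey bars are the median of all features on the array with the sign turned in the same way, and arrays with no value are marked blank; the spots of Ac78C on day 10 replicate 1 lie beside that array's median of -0.83.

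The paired spots show how closely a gene could be measured on 1 array. The spots of a gene differed by 0.024 to 0.70 log2 units, with a median of 0.098 over the 17 pairs of values. The median difference over all spot pairs was between 0.117 and 0.243 on the 8 arrays, and 6 of the 17 differences exceeded the median of their own array. The widest gap belonged to Ac76E on day 10 replicate 1, where its spots read 0.200 and -0.500. Ac13E on day 10 replicate 2 followed with 0.203 and 0.723, and Ac78C on day 14 replicate 4 had turned values of 0.213 and 0.621.

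Ac78C was the only gene of the 3 with enough values for a test on both days. At day 14 its turned log2 ratios, averaged over its spots, were 0.21, 0.004 and 0.42 on replicates 1, 3 and 4. At day 10 they were -0.89, -0.13 and 0.14 on replicates 1, 2 and 4. The day 14 values were all above 0, one of them barely, while the day 10 values lay on both sides of 0 and the 2 days overlapped. A value above 0 on every measured array was found for 4.35% of the genes and features tested at day 14. That share includes those with values on replicate 2, where the array median was -0.48 and Ac78C was blank. It is therefore not a matched background for Ac78C.

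The day 14 mean of Ac78C was 0.21 ± 0.29 (SE, n = 3), with a 95% confidence interval from -0.38 to 0.80, and did not pass (limma adjusted p = 1). The day 10 mean was -0.30 ± 0.30 (SE, n = 3), with an interval from -0.95 to 0.36 (limma adjusted p = 0.772). As ratios these means stand for 1.16-fold at day 14 and 0.815-fold at day 10. The difference of the log2 ratios, day 14 minus day 10, was 0.51 ± 0.42 (SE, limma adjusted p = 0.936), with an interval from -0.34 to 1.36. Throughout, an SE is limma's moderated one, from a variance shared by both days and moderated over everything tested. It is not the SE of the listed values alone: those of Ac78C at day 14 had an SD of 0.21. An SD, where given, is that of the values themselves.

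The Ac78C values followed the medians of their arrays. Relative to those medians the gene stood at -0.078, -0.052 and 0.22 at day 14 and at -0.059, 0.13 and 0.025 at day 10. Replicate 1 was still the lowest of the day 10 values, by much less than before. On that array 46.3% of named genes had a lower ratio than Ac78C. With arrays centred on their medians the fitted mean was 0.031 at both days, with 95% intervals of -0.29 to 0.36 (day 14) and -0.34 to 0.41 (day 10). The difference between the days was then -0.0002, with an interval from -0.47 to 0.47, or 0.722-fold to 1.39-fold. Without day 10 replicate 1 the uncentred day 10 mean was 0.0025, and the day difference was 0.21. At day 14 the mean was 0.107 without replicate 4 and 0.31 without replicate 3. With the deposited signs the mean of Ac78C was -0.070 at day 14 and -0.39 at day 10.

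Ac13E was measured on every day 10 array. At day 14 its turned values were 0.15 and 0.25 on replicates 3 and 4, both with treated RNA in Cy3. At day 10 they were -0.62, 0.46, -0.045 and -0.11 on replicates 1 to 4. Both day 14 values were above 0 and lay inside the range of day 10, where 3 arrays were below 0 and replicate 2 above. The day 10 mean was -0.078 ± 0.26 (SE, n = 4), with an interval from -0.64 to 0.48 (limma adjusted p = 0.903). The day 14 mean of 0.20 ± 0.066 (SD, n = 2) had too few arrays for the test as set. Both of its values come from arrays whose sign was turned, and with the deposited signs the mean is -0.20, with 2 of 2 values below 0.

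Relative to the array medians the day 10 order of Ac13E changed. Replicate 2 stayed highest at 0.73, above 95.8% of named genes on that array, replicate 1 moved to 0.21, and replicates 3 and 4 stood at 0.035 and -0.22. The fitted day 10 mean was 0.19 with arrays centred on their medians. After the medians of neighbouring features in the table were subtracted instead, the mean was 0.33, with an interval from -0.029 to 0.68 (limma adjusted p = 0.796). With the deposited signs it was -0.0015. Without replicate 1 it was 0.10, so the sign of the day 10 mean rested on that array and on the treatment of the array offsets.

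Ac76E had the fewest values. At day 14 its turned log2 ratios were -0.051 and 0.27 on replicates 1 and 3. At day 10 they were -0.15, -0.31 and 0.28 on replicates 1, 2 and 4. The sign of these uncentred spot means followed the dye on both days, below 0 where treated RNA carried Cy5 and above 0 where it carried Cy3. Relative to the array median, day 10 replicate 1, with treated RNA in Cy5, stood at 0.68 instead. Feature 11747 alone read 0.200 on that array. Before the sign was turned all 5 spot means were below 0, from -0.31 to -0.051. The deposited medians of day 10 replicates 1, 2 and 4 were also below 0, at -0.83, -0.26 and -0.11. At day 10 a deposited value below 0 on every measured array was shared by 27.1% of the genes and features tested. Ac76E and Ac78C both showed it there, and both were blank on replicate 3, whose deposited median was 0.079.

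The day 10 mean of Ac76E was -0.061 ± 0.30 (SE, n = 3), with an interval from -0.71 to 0.58 (limma adjusted p = 0.933). With the deposited signs the mean was -0.24 (limma adjusted p = 0.56). With arrays centred on their medians it was 0.27, and without replicate 2 it was 0.063. After centring by position in the table its 3 day 10 values fell between -0.013 and 0.14 and the mean was 0.053, with an interval from -0.22 to 0.32. The day 14 mean was 0.11 ± 0.23 (SD, n = 2), and with the deposited signs it was -0.16 ± 0.16.

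When the filter was relaxed to 2 values per day, the day 14 means of Ac13E and Ac76E could be tested. Their intervals ran from -0.53 to 0.93 and from -0.61 to 0.83, and both had an adjusted p of 1 in limma's moderated test, with swapped arrays turned. The difference of log2 ratios, day 14 minus day 10, was 0.28 ± 0.43 for Ac13E and 0.17 ± 0.45 for Ac76E (SE).

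**Figure D2:**
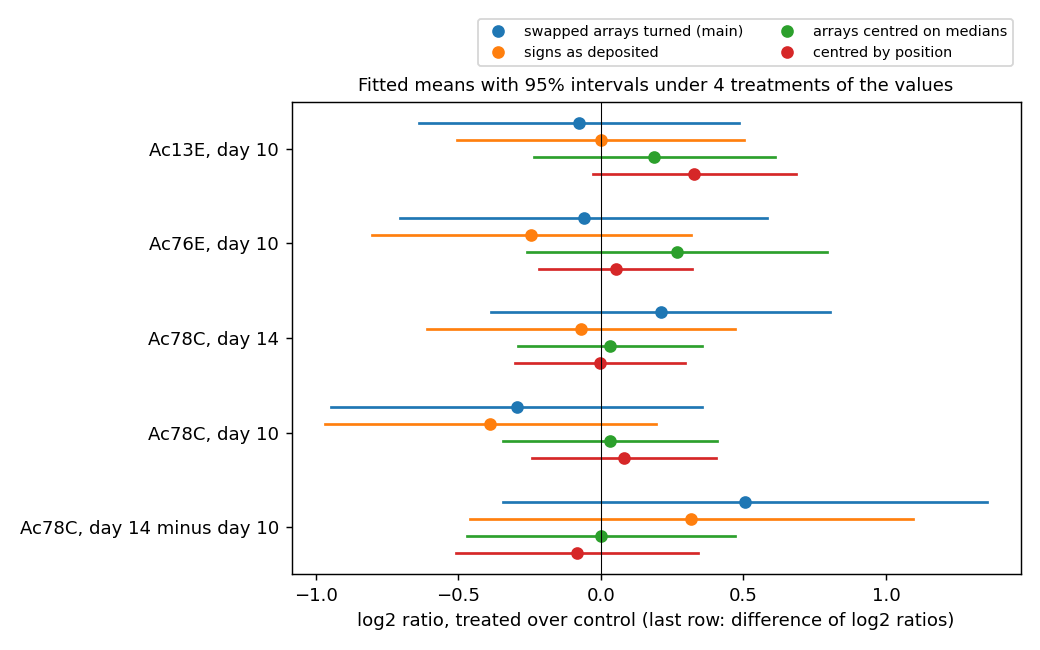
Fitted mean log2 ratio of treated over control (x axis; for the last row the difference of log2 ratios, day 14 minus day 10) with 95% confidence intervals for each tested gene and day (y axis). Colours stand for swapped arrays turned, signs as deposited, arrays centred on their medians and centring by position; every interval includes 0, and the widest belongs to the day difference of Ac78C, from -0.34 to 1.36.

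The values of the 3 genes were also set side by side on each array. Of the arrays that measured all of them, day 14 replicate 3 had all 3 above 0, day 10 replicate 1 had all 3 below 0, and day 10 replicates 2 and 4 had values on both sides. On day 10 replicate 1 the median of all features was -0.83, and on day 14 replicate 3 the turned median was 0.056. In the fits, 0 of 1 gene tested passed at day 14 and 0 of 3 at day 10. Over the whole array limma's moderated test called 0 of 6142 genes and features at day 14 (0%), where 69 had an unadjusted p under 0.05. At day 10 it called 0 of 11312 (0%), with 597 at an unadjusted p under 0.05. For the difference between the days it called 0 of 5187 (0%), with 112. None of the 3 cyclases had an unadjusted p under 0.05 in any of these.

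The day 10 means were also read against the other genes. The median over everything tested was -0.0007 at day 14 and -0.25 at day 10. At day 14 Ac78C lay 0.21 above that median, higher than 87.0% of genes and features. At day 10 Ac76E, Ac13E and Ac78C stood at 0.19, 0.17 and -0.047 relative to it, higher than 80.6%, 78.6% and 41.6% of genes and features. The medians over everything tested were -0.13 at day 14 and -0.30 at day 10 with the deposited signs. Ac78C was then 0.057 above the median at day 14, higher than 62.2%. At day 10 Ac76E, Ac13E and Ac78C stood at 0.060, 0.30 and -0.084 relative to it, higher than 57.0%, 79.7% and 38.9%. With arrays centred on their medians Ac78C at day 14 was higher than 56.1% of genes and features, and centred by position than 49%. At day 10 centring on medians put Ac76E, Ac13E and Ac78C above 85.3%, 77.6% and 50.9%. Centring by position put them above 61.8%, 95.2% and 68.4%. These ranks carry no test.

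Among other cyclases, rut, Ac3, ACXA, ACXB and ACXE were not among the named features and were not analysed here. ACXC and ACXD, members of a cyclase group known from the testis, had no value at day 14. At day 10 ACXC had turned log2 ratios of 0.73, -1.27 and -0.78 on replicates 1, 3 and 4. As deposited, all 3 were above 0, and the mean was 0.93 with those signs against -0.44 ± 0.39 (SE, n = 3) with swapped arrays turned (limma adjusted p = 0.772). ACXD had 1 value, -0.96 on day 10 replicate 2. The guanylyl cyclases, which make cyclic GMP, included Gyc89Db, an atypical soluble form, at -0.72, -0.57 and -0.64 on day 10 replicates 1, 3 and 4. These uncentred values were alike on all measured arrays, although the median of all features on replicate 1 was itself -0.83. The mean of -0.64 ± 0.30 (SE, n = 3) did not pass (limma adjusted p = 0.772). The mean of Gyc89Db was 0.16 with the deposited signs, -0.38 with arrays centred on their medians and -0.68 centred by position. Gycalpha99B, a soluble guanylyl cyclase subunit, averaged -0.12 ± 0.30 at day 14 (SE, n = 3) and -0.52 ± 0.27 at day 10 (SE, n = 4). Its means were -0.30 and -0.056 with the deposited signs, and centred by position the day 10 mean was 0.037.

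The rest of the cyclic AMP pathway was followed through a list of 86 genes ordered by role, of which 43 were named on the array, 20 were tested at day 14 and 28 at day 10. No list member passed on either day (0 of 20 and 0 of 28, limma). At day 14 the median log2 ratio of the tested members was -0.0007, with 10 above 0 and 10 below. At day 10 it was -0.21, with 2 above 0 and 26 below, and 13 of the 28 lay below the median of everything tested. The list had, with the deposited signs, 4 above 0 and 16 below at day 14, with a median of -0.21. At day 10 it had 5 above and 23 below, with a median of -0.26. The medians over everything tested were then below 0 too, at -0.13 at day 14 and -0.30 at day 10. The deposited signs gave 8 of the 20 day 14 means and 7 of the 28 day 10 means the other sign. Centring by position did so for 4 and 20. The directions given next therefore hold for swapped arrays turned and uncentred values, unless another reading is named.

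Galphas, the stimulatory subunit that activates adenylyl cyclases, had a mean log2 ratio of -0.16 ± 0.25 at day 14 and 0.16 ± 0.25 at day 10 (SE, n = 4 each). Its day 14 values were -0.27, -0.72, 0.27 and 0.093, and its day 10 values were 0.21, -0.097, 0.28 and 0.23. The groups overlapped, and 3 of the 4 day 10 arrays were above 0. Both means of Galphas were below 0 with the deposited signs, at -0.34 and -0.10. With arrays centred on their medians they were -0.17 at day 14 and 0.42 at day 10. Centred by position they were -0.12 and 0.073. Galphaq, which acts through phospholipase C, had the smallest unadjusted p of the G protein subunits on both days, with means of 0.24 ± 0.26 and -0.34 ± 0.28 at day 14 and day 10 (SE, n = 4 each). Its means were -0.20 and -0.17 with the deposited signs, so the day 14 sign turned. With arrays centred on their medians the means of Galphaq were 0.22 at day 14 and -0.073 at day 10. Centred by position they were -0.061 and -0.14, so the day 14 sign turned there too.

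Among receptors that raise cyclic AMP, the one with the smallest unadjusted p at day 14 was DopEcR, a receptor for dopamine and ecdysteroids, at 0.35 ± 0.26 (SE, n = 4). Its 4 arrays read 1.22, -0.42, 0.16 and 0.44, and replicate 1 was far above the others. At day 10 it was Octbeta2R, an octopamine receptor, at -0.30 ± 0.27 (SE, n = 4). Among receptors that lower cyclic AMP, the serotonin receptor gene 5-HT1A had 0.29 ± 0.28 at day 14 (SE, n = 4), and at day 10 the neuropeptide F receptor gene NPFR had -0.20 ± 0.27 (SE, n = 4). The deposited signs gave day 14 means of 0.049 for DopEcR and -0.32 for 5-HT1A, and day 10 means of -0.44 for Octbeta2R and -0.48 for NPFR. Centred by position, the day 10 means of both were above 0, at 0.054 for Octbeta2R and 0.012 for NPFR. None of these 4 receptors passed (limma adjusted p of 1 at day 14, 0.772 for Octbeta2R and 0.801 for NPFR at day 10).

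Downstream of cyclic AMP, Pka-C2, a protein kinase A catalytic subunit gene, had day 10 values of -1.21, -0.50 and -0.23 on replicates 1, 2 and 3 and a mean of -0.65 ± 0.32 (SE, n = 3; limma adjusted p = 0.772). Its mean was -0.49 with the deposited signs, but it was -0.25 with arrays centred on their medians and 0.20 centred by position. Pka-R1, a regulatory subunit gene, had -0.043 ± 0.26 at day 14 and -0.025 ± 0.26 at day 10 (SE, n = 4 each), or -0.39 and -0.24 with the deposited signs. With arrays centred on their medians the day 10 mean of Pka-R1 was 0.24. The phosphodiesterase gene Pde1c stood at -0.046 ± 0.31 at day 14 and Pde8 at -0.38 ± 0.26 at day 10 (SE, n = 4 each). The deposited signs gave 0.22 for Pde1c and -0.33 for Pde8, and centred by position Pde8 stood at 0.038. Ih, a channel gated by voltage and cyclic nucleotides, had -0.14 ± 0.30 at day 14 (SE, n = 3) and -0.37 with the deposited signs.

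The lowest day 10 mean of the list belonged to Nf1, the neurofibromin gene, which in flies is known to act on rutabaga cyclase activity. Its values were 0.24, -0.43, 0.21 and 0.29 at day 14 and -2.20, -0.71 and 0.34 on day 10 replicates 1, 2 and 4. The low mean was carried by replicate 1, and the 2 days overlapped. The fitted means of Nf1 were 0.077 ± 0.28 at day 14 (SE, n = 4) and -0.86 ± 0.39 at day 10 (SE, n = 3), and neither passed (limma adjusted p of 1 and 0.772). At day 10 an unadjusted p under 0.05 (limma) was found for 597 of 11312 tested (5.28%). Of the 28 tested list members Nf1 alone had one. With arrays centred on their medians the day 10 mean was -0.53, and centred by position it was -0.46. With the deposited signs the means of Nf1 were -0.17 at day 14 and -1.08 at day 10.

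**Figure D3:**
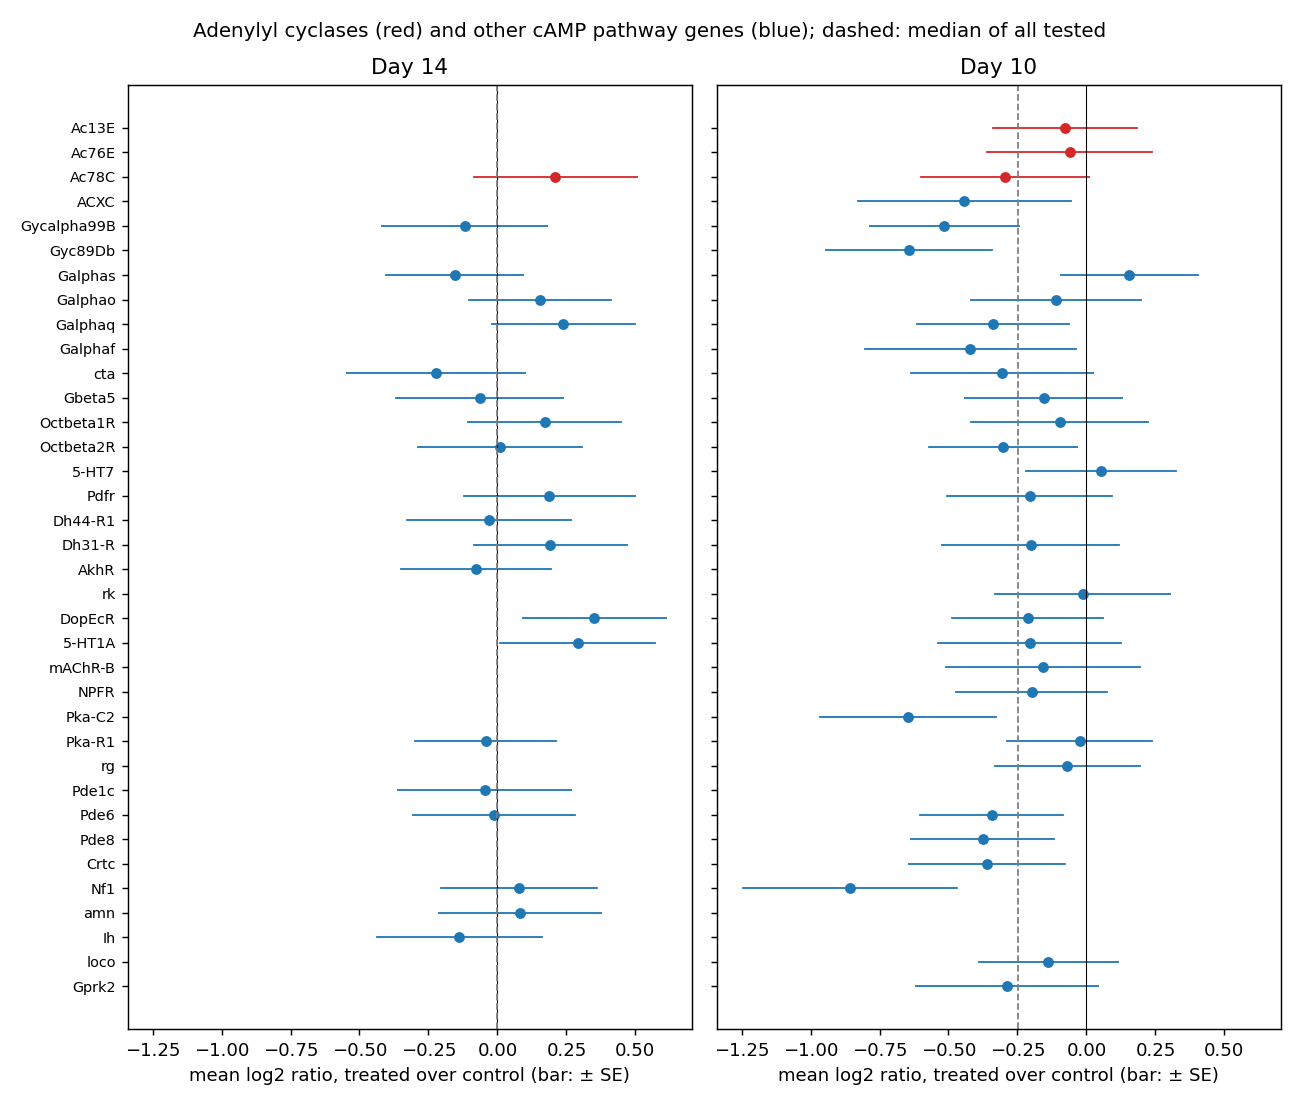
Mean log2 ratio of treated over control with its SE (x axis) for Ac13E, Ac76E and Ac78C in red and the tested members of the cyclic AMP pathway list in blue (y axis), at day 14 on the left and day 10 on the right; genes with fewer than 3 values on a day are left empty. The dashed line is the median of everything tested, -0.0007 at day 14 and -0.25 at day 10, and at day 10 the red points sit on both sides of it.

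Genes whose ratios ran most like those of a cyclase were ranked by Pearson correlation of array-centred values over the 6 arrays that measured the cyclase. Among 1848 genes measured on the same arrays, CG5327, the tetraspanin gene Tsp42Ei and Ahcy, which encodes adenosylhomocysteinase, followed Ac13E with r of 0.979, 0.975 and 0.969. Their ranges differed: CG5327 ran from -0.69 to -0.36 on these arrays and Ahcy from -0.11 to 0.17, while Ac13E ran from -0.22 to 0.73. Among 1341 genes, emp, a scavenger receptor gene, scramb1, a phospholipid scramblase gene, and Strip had r of 0.934, 0.912 and 0.870 with Ac78C. The points share arrays and dyes, and only the median of each array had been removed. With so many genes and 6 points these correlations are a description only. Ac76E had 5 arrays, fewer than the 6 set for the ranking.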

How the data were processed

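Per the labels, spots were quantified with GenePix Pro, ratio-normalized per array in Acuity and filtered by the authors on intensity, saturation, flags, uniformity and signal to noise. The deposited values are log2 ratios, and base 2 follows from their extremes. Spot brightness is not known, since no scanner output was used here. Features were named through the platform annotation and the RefSeq gene table of the Release 6 assembly: 15116 had exactly 1 symbol, and 14894 of these matched by gene identifier. Features of a gene were averaged, and all others were tested under their own number.

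Limma 3.58.1 in R 4.3.3 was fitted for each comparison to genes and features with at least 3 values per day, as 1 mean per day over all 8 arrays, with Benjamini-Hochberg adjustment over everything tested and a threshold of 0.05. The fit was tested on simulated data. Precision was limited: the median SE was 0.269 at day 14 and 0.299 at day 10. With arrays centred on their medians the SE of Ac78C went from 0.295 to 0.144 at day 14. At day 10 it went from 0.305 to 0.161. What sets the precision was not tested. The labels call the arrays biological replicates. The genes, the pathway list and the alternatives were chosen with earlier results of these data known. From the list, adenylyl cyclases with a value and the gene with the smallest unadjusted p per role and day were named; Galphas, Pka-R1 at day 10 and Gycalpha99B at day 10 were added after their values were seen. Centring by position subtracted the medians of runs of 576 and then 24 features.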

Additional observations from a re-analysis of the deposited data

How the results depend on the processing

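The 5 tested values of the cyclases were recomputed under 109 combinations of result and alternative. Of these 93 kept the direction and 16 turned it, and the smallest adjusted p was 0.386 (limma), so none passed. Many of the 93 could not turn a direction, because they leave the estimate itself unchanged. Among them are robust variances, the relaxed filter, each day fitted alone and, for a day mean, leaving out an array of the other day. The 93 is therefore no measure of stability. With arrays centred on their medians the log2 ratios turned to 0.19 for Ac13E, 0.27 for Ac76E and 0.031 for Ac78C at day 10, and to -0.0002 for the day difference of Ac78C. Centred by position they were 0.33, 0.053 and 0.082 at day 10, -0.0022 for Ac78C at day 14 and -0.084 for its day difference. Array weights gave 0.15 for Ac13E at day 10, a dye term 0.0105 and feature 11747 alone 0.045 for Ac76E at day 10, and deposited signs -0.070 for Ac78C at day 14. Leaving out 1 array at a time, with 2 values then enough on its day, gave -0.26 to 0.10 for Ac13E, -0.23 to 0.063 for Ac76E and -0.51 to 0.0025 for Ac78C at day 10; the upper ends are without day 10 replicate 1, 2 and 1. It gave 0.107 to 0.31 for Ac78C at day 14, without day 14 replicate 4 and 3, and 0.21 to 0.72 for its day difference, without day 10 replicate 1 and 4. The cause of these turns was not tested, beyond the size of the array offsets given above.

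Over the whole array the 0 calls at day 14 became 1 with deposited signs, 1 with values on all 4 arrays, 2 with a dye term, 649 with array weights and 2 with each day fitted alone. At day 10 they became 57 with deposited signs, 26 with array weights, 3 with each day fitted alone, and 441 and 67 on the Cy5 and the Cy3 arrays alone. For the day difference they became 2 with a dye term, 199 with array weights and 15 on the Cy3 arrays alone. Leaving out 1 array gave 0 to 1 at day 14 and 0 to 16 for the day difference, the most without day 10 replicate 4. Ac13E, Ac76E and Ac78C were not among the calls of any of these alternatives in which they were tested. With the replicate number as a block (replicate block) the counts were 1 at day 14, 32 at day 10 and 1 for the difference, and Ac78C stood at 0.30, -0.39 and 0.69. Deviations of same-numbered arrays correlated at 0.03, 0.37, 0.215 and 0.193, and 2 of the 4 numbers had their own number as best match. Pairing was to be accepted only if each correlation passed 0.1, which replicate 1 did not, so the block stays an alternative and pairing is neither shown nor dismissed.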
